A study of Canis lupus familiaris with 10 samples.

Results

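The synaptic vesicle and release machinery of the retina was examined as a module of 48 genes, out of the 15115 genes that the array annotation names by 1 symbol. The members were taken from a list of 38 gene symbols for ribbon and conventional synapses, the SNARE core, vesicle membrane proteins, calcium sensors, the active zone and endocytosis, together with every numbered synaptotagmin. Of the listed symbols 32 were found, 16 synaptotagmins joined them, and the 48 genes lay on 74 of 42924 probe sets. CTBP2 and its product RIBEYE, STX3, SYN1, UNC13A and UNC13B, the 6 other listed names, were not found under these symbols and were not analysed here.

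Neural retina from 1 eye each of 5 dogs with advanced primary glaucoma and 5 control dogs was hybridized to 1 Affymetrix canine array per dog. By their labels, the glaucomatous retinas came from Shiba Inus of 5 and 14 years, Basset Hounds of 5 and 7 years and a Dalmatian of 9 years. The paper lists other ages for the older Shiba Inu and the Dalmatian. By the methods of the study, these eyes had a closed drainage angle and the dogs were treated with latanoprost and a carbonic anhydrase inhibitor. All control retinas came from Beagles of 4 years with open angles and normal intraocular pressure. The groups share neither breed nor age, and every glaucomatous dog was older than the controls. By the methods, glaucomatous eyes were enucleated from clinic patients to relieve pain, and control dogs were euthanized for other reasons. Disease, its treatment, breed and the way the eyes were obtained cannot be told apart here. Age can be told apart only through a slope that rests on the glaucomatous dogs.

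Neurons release transmitter from vesicles that dock at an active zone, are primed, and fuse when calcium enters. The SNARE proteins of the vesicle (VAMP) and of the plasma membrane (syntaxin and SNAP25) zip together to drive fusion. Many synaptotagmins sense calcium, complexins clamp and promote the SNARE complex, and NSF with its SNAP adaptors takes spent complexes apart. In the retina, photoreceptors and bipolar cells release tonically at ribbon synapses, which use their own complexins, whereas amacrine cells release at conventional synapses.

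Levels are given as log2 of the normalized intensity, and a difference is the mean log2 level in glaucomatous retinas minus that in control retinas, where -1 is a 2-fold lower level. Values per dog follow the order of the glaucomatous dogs above and then control dogs 1 to 5. A gene was tested where a probe set exceeded a log2 level of 7 in at least 2 retinas, and called at an adjusted p under 0.05 in limma, a linear model with moderated variances. This left 26 of the 48 members, and the other 22 did not meet this minimum on any probe set. Median intensity was 77.1 to 80.7 per array, and the number of arrays limits the precision.

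The 5-year-old Shiba Inu's retina stood apart. Its rod markers had a median deviation from the control mean of -3.47, against -0.62 to 0.03 in the other glaucomatous retinas and -0.38 to 0.19 in the control retinas, and its pigment epithelium markers had 2.90, against 1.81 in control 4 and at most 0.86 in the others. Marker lists of other cells differed between the groups. Lower in glaucoma were 6 of 9 tested ganglion cell, 4 of 6 amacrine and 4 of 6 bipolar markers. So were 4 of 4 horizontal and 3 of 9 cone markers, but none of 10 rod markers, and 8 of 10 microglia markers were higher. Over all tested genes 8.65% were lower and 8.04% higher. TFAP2A, ISL1, ONECUT2 and PROX1 had met the level minimum in the control group alone, and CSF1R, CD68 and TREM2 in the glaucoma group alone. For these markers the selection favoured the direction called, and TFAP2B stood in both the amacrine and horizontal lists. Of the ganglion cell list SNCG, gamma-synuclein, was called higher on its brightest probe set, at 11.92 in glaucomatous and 9.40 in control retinas (2.52, adjusted p = 0.000195). The paper lists SNCG as decreased on another probe set, so that probe sets of this gene go opposite ways. Ganglion cell markers had medians of -3.64 to -1.09 in glaucomatous retinas and -0.33 to 0.38 in control retinas, bipolar markers -2.65 to -1.17 in glaucomatous and -0.18 to 0.12 in control retinas, and amacrine markers -2.61 to -0.90 in glaucomatous and -0.22 to 0.22 in control retinas. RNA integrity was gauged by the actin and GAPDH controls of the array. Their 3' signal over their 5' signal (log2) averaged 0.94 ± 0.14 in glaucomatous and 1.19 ± 0.22 in control retinas (SD, n = 5 each, exact two-sided permutation p = 0.0556). The same ratio on other actin and GAPDH control probe sets, chosen after seeing the data, went the other way. It averaged 2.51 ± 0.41 in glaucomatous and 2.29 ± 0.41 in control retinas (exact two-sided permutation p = 0.389), so that the gauges disagree on direction. In whole retina, fewer cells of a type and less RNA per cell cannot be told apart, and the part of cell composition in the results below was not tested.

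Every member called in the main test was lower in glaucoma. Without the level minimum, 12 of the 48 members (25% against 4.91% of all 15115 genes) were called lower and none higher (4.53% of all genes), with 35 of 48 differences below 0 and a median difference of -0.29, against 0.03 over all genes. Among the 26 tested members, 10 were called lower and none higher, where 8.65% of the 7900 tested genes were lower and 8.04% higher. Before adjustment 16 of the 26 had p under 0.05 on the lower side and 2 on the higher side, which were SYNGR1 and SYT17. The shares of all genes above are at adjusted p and do not apply to these counts. The share at unadjusted p is not given here.

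Of the 10 members called lower, 9 were at least 2-fold lower (2.71% of all tested genes), as were 9 of the 48 without the minimum (1.46%), and none was at least 2-fold higher (3.27%). Of the 10, 6 had passed the level minimum in both groups. SYNPR, NRSN1, SYT4 and SYT14 had met it in the control group alone, so that their selection favoured a lower level in glaucoma. The groups did not overlap for 11 tested members, all lower in glaucoma, where 7.84% of all tested genes did so and 7.29% lay apart on the higher side. Of the 48, 13 lay apart on the lower side (4.98% of all genes) and none on the higher (5.07%). Counted by probe set, 15 of 39 tested were lower (9.4% of all tested probe sets) and none higher (7.58%). The number of members called was 1 of 2 ribbon, 3 of 4 SNARE core, 2 of 5 vesicle membrane, 3 of 7 calcium sensor, 1 of 3 active zone and none of 5 endocytosis genes.

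With the 3' to 5' ratio as a covariate, CADPS, SYNPR, SYT4, NRSN1 and CPLX3 were called, while NSF, NAPB, SNAP25, SYT3 and SYT14 were not. NSF then differed by -1.03 (adjusted p = 0.0851), NAPB by -1.36 (adjusted p = 0.128) and SYT14 by -1.07 (adjusted p = 0.154), against -1.11, -1.57 and -1.28 without the covariate. SNAP25 differed by -0.72 (adjusted p = 0.291) and SYT3 by -0.70 (adjusted p = 0.147), against -1.04 and -0.88. In that fit 2.52% of all tested genes were lower. With the ratio of the other control probe sets instead, all 10 members were called again. With age as a covariate, NAPB (-1.66, adjusted p = 0.0539) and SNAP25 (-1.29, adjusted p = 0.0591) no longer passed, although their differences were no smaller, and SYT14 (-0.97, adjusted p = 0.137) did not pass either. DNM1, SV2A, SYT5 and VAMP2 were then called lower, with 4.35% of all tested genes lower. All controls had 1 age, so its slope rests on the glaucomatous dogs and on the ages in their labels. Without the Shiba Inus 12 members were lower and without the Basset Hounds 11, all 10 among them each time.

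**Figure D1:**
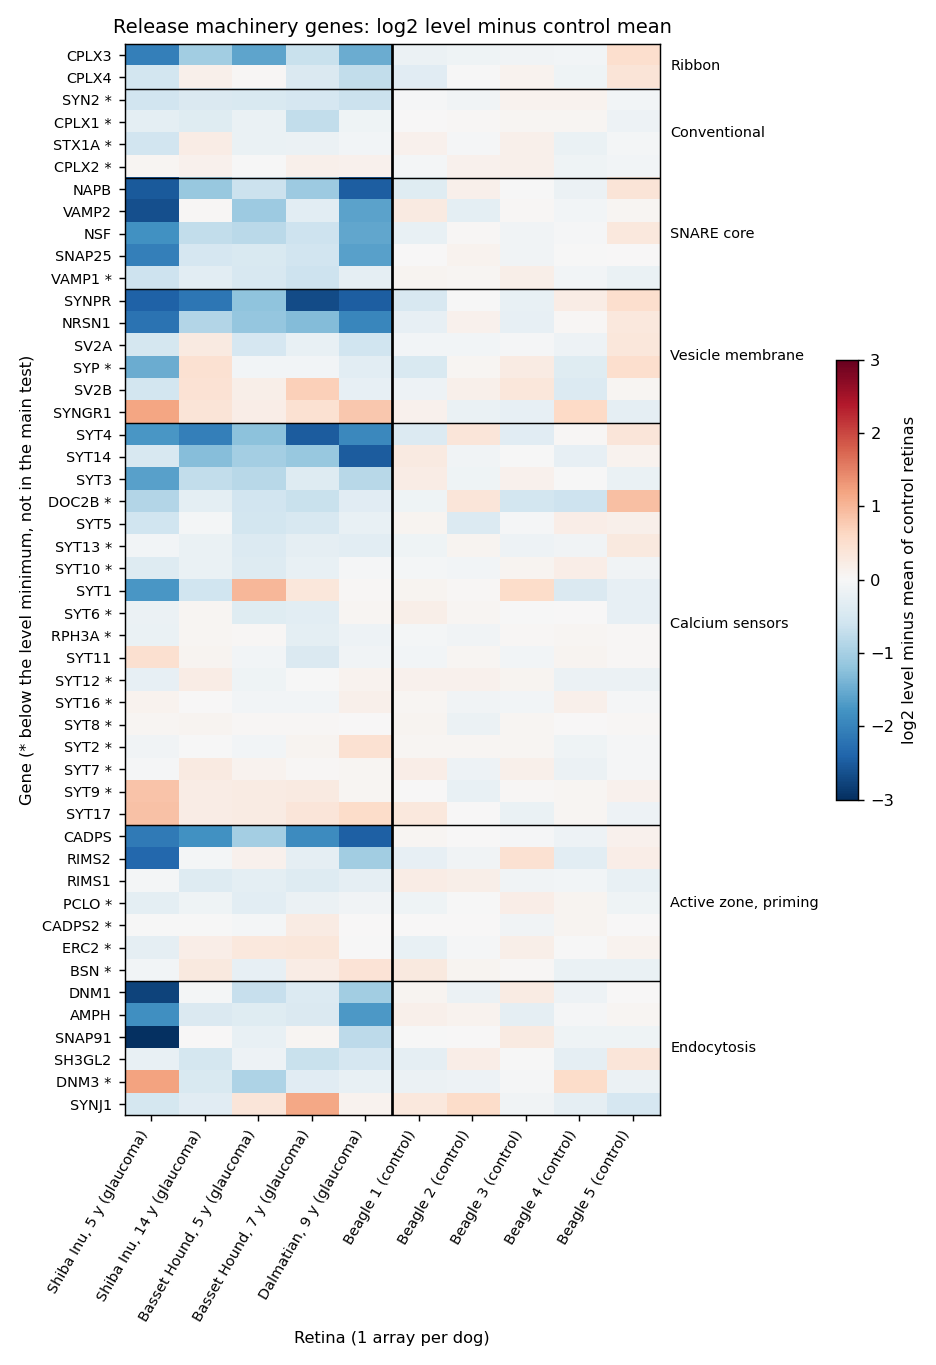
Deviation of each member from its control mean (log2 units, colour scale) in the 5 glaucomatous and the 5 control retinas, members grouped by role. The column of the 5-year-old Shiba Inu holds the lowest glaucoma value in 15 of the 26 tested members.

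Of the ribbon complexins, CPLX3 was lower in glaucoma. CPLX3, a complexin of ribbon synapses and of some amacrine cells in the mouse, had log2 levels of 8.46, 9.47, 8.93, 9.85 and 9.02 in glaucomatous retinas, against 10.34, 10.38, 10.40, 10.42 and 11.02 in control retinas. The groups did not overlap, and the 5-year-old Shiba Inu was lowest. The difference was -1.37 (SE 0.24, adjusted p = 0.00361), a 2.58-fold lower level.

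CPLX4, the photoreceptor complexin of the mouse retina, had 11.91, 12.60, 12.48, 12.03 and 11.72 in glaucomatous retinas, against 12.12, 12.44, 12.57, 12.33 and 12.84 in control retinas. The groups overlapped, and the 14-year-old Shiba Inu and the 5-year-old Basset Hound lay within the control range. The difference was -0.31 (SE 0.19, adjusted p = 0.291), with a 95% interval of -0.73 to 0.11, and whether it differs from that of CPLX3 was not tested.

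The conventional release genes lay below the level minimum in every retina, so that they had no place in the test, and values come from the fit without the minimum. SYN2, a synapsin that tethers vesicles at conventional terminals and is missing from ribbon terminals in other mammals, had 4.18, 4.32, 4.31, 4.26 and 4.12 in glaucomatous retinas, against 4.73, 4.66, 4.88, 4.87 and 4.69 in control retinas. Its glaucoma values all lay below its control values, with a difference of -0.53 (SE 0.08, adjusted p = 0.00237).

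CPLX1, a complexin of conventional synapses, had 5.97, 5.90, 6.06, 5.53 and 6.14 in glaucomatous retinas, against 6.28, 6.29, 6.32, 6.33 and 6.10 in control retinas on its brighter probe set, where only the Dalmatian reached the control range and the difference was -0.34 (SE 0.11, adjusted p = 0.0967). Its second probe set did not overlap between the groups and differed by -0.76 (SE 0.11, adjusted p = 0.00143). CPLX2, its close relative, had 5.15, 5.21, 5.08, 5.23 and 5.21 in glaucomatous retinas, against 5.03, 5.22, 5.23, 4.96 and 4.99 in control retinas. STX1A, the plasma membrane syntaxin of conventional synapses, had 5.06, 5.86, 5.43, 5.46 and 5.56 in glaucomatous retinas, against 5.77, 5.61, 5.80, 5.45 and 5.58 in control retinas. Neither passed, with differences of 0.09 (SE 0.08, adjusted p = 0.603) and -0.17 (SE 0.14, adjusted p = 0.541), and both overlapped.

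**Figure D2:**
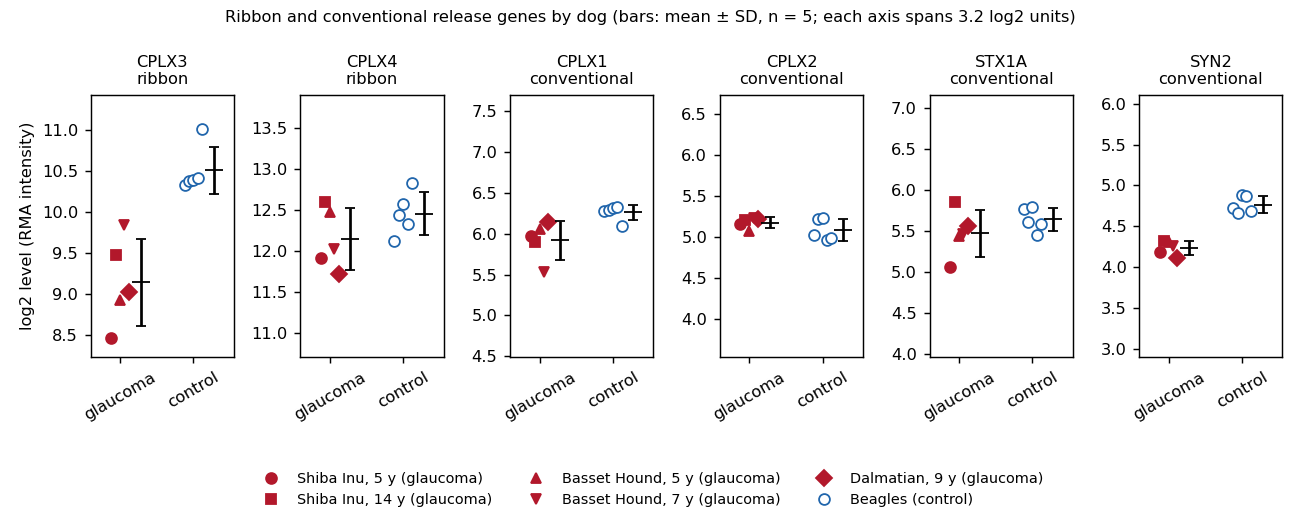
Log2 level of the ribbon and conventional members in each retina, with the mean and SD (n = 5 per group), glaucoma left of control, each axis spanning the same number of log2 units. CPLX3 and SYN2 show no overlap, whereas CPLX4, CPLX2 and STX1A do.

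Of the SNARE core, NSF, NAPB and SNAP25 were lower in glaucoma. NSF, the ATPase that disassembles SNARE complexes, had 8.99, 10.06, 9.98, 10.17 and 9.25 in glaucomatous retinas, against 10.57, 10.84, 10.69, 10.76 and 11.12 in control retinas. NAPB, the brain form of the SNAP adaptor that couples NSF to the complex, had 5.90, 7.27, 7.76, 7.32 and 5.94 in glaucomatous retinas, against 8.04, 8.57, 8.40, 8.24 and 8.81 in control retinas. In both, the 5-year-old Shiba Inu and the Dalmatian were lowest, and no glaucomatous retina reached the controls. NSF differed by -1.11 (SE 0.23, adjusted p = 0.00839) and NAPB by -1.57 (SE 0.36, adjusted p = 0.0125). Each also passed on its second probe set. That of NAPB had met the level minimum in the control group alone, so that its selection favoured a lower level in glaucoma.

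SNAP25, a plasma membrane SNARE shared by ribbon and conventional synapses, had 11.35, 12.91, 12.96, 12.83 and 11.78 in glaucomatous retinas, against 13.41, 13.52, 13.31, 13.39 and 13.42 in control retinas. The same dogs were lowest, the other glaucomatous retinas lay within 1 log2 unit of the controls, and the groups did not overlap. The difference was -1.04 (SE 0.30, adjusted p = 0.0346). This call was near the threshold and was lost when the Dalmatian or any single control was left out (adjusted p 0.0598 to 0.0853).

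VAMP2, the vesicle SNARE of most synapses, had 8.54, 11.20, 10.08, 10.86 and 9.58 in glaucomatous retinas, against 11.45, 10.89, 11.21, 11.09 and 11.24 in control retinas. Its difference of -1.12 (SE 0.42, adjusted p = 0.0909) did not pass. The 14-year-old Shiba Inu lay within the control range, and the 5-year-old lay farthest below it. A second VAMP2 probe set, without overlap, did pass (-1.24, adjusted p = 0.0256), so that the probe sets disagree on the call. VAMP1 lay below the level minimum and differed by -0.46 (SE 0.10, adjusted p = 0.019) without it, with no overlap.

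Of the 5 tested vesicle membrane genes, SYNPR and NRSN1 were lower in glaucoma and the others did not pass. SYNPR, synaptoporin, a vesicle protein of the synaptophysin family, had the largest difference of the tested members, with 5.75, 6.01, 6.97, 5.49 and 5.70 in glaucomatous retinas, against 7.68, 8.16, 7.94, 8.40 and 8.68 in control retinas. No glaucomatous retina reached the level minimum, every control retina did, and the 5-year-old Basset Hound was nearest to the controls. The difference was -2.19 (SE 0.28, adjusted p = 0.000486), a 4.55-fold lower level. NRSN1, neurensin 1, a neuronal vesicle protein, had 5.44, 6.79, 6.51, 6.36 and 5.70 in glaucomatous retinas, against 7.41, 7.80, 7.41, 7.70 and 7.97 in control retinas and differed by -1.50 (SE 0.25, adjusted p = 0.00241), with no overlap.

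SYNGR1, synaptogyrin 1, an abundant vesicle protein, had a positive difference, with 11.20, 10.39, 10.20, 10.46 and 10.83 in glaucomatous retinas, against 10.14, 9.80, 9.77, 10.59 and 9.73 in control retinas. Control 4 lay above 3 of the glaucomatous retinas, and the difference of 0.61 (SE 0.22, adjusted p = 0.081) did not pass. Its 3 tested probe sets gave 0.61 to 0.96, with adjusted p of 0.0521 to 0.0810. SV2A and SV2B, vesicle proteins of the transporter family, differed by -0.32 (SE 0.17, adjusted p = 0.227) and 0.11 (SE 0.24, adjusted p = 0.788), and SYP, synaptophysin, did not meet the minimum.

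The calcium sensor list, which took in every numbered synaptotagmin by its symbol whether or not it binds calcium, held 3 called synaptotagmins. SYT4, a synaptotagmin of dense-core vesicles, had 5.59, 5.29, 6.12, 4.85 and 5.40 in glaucomatous retinas, against 6.93, 7.70, 7.00, 7.38 and 7.70 in control retinas. All glaucomatous retinas lay under the controls and under the level minimum, for a difference of -1.89 (SE 0.24, adjusted p = 0.000476). SYT3 had 7.24, 8.14, 8.05, 8.50 and 8.05 in glaucomatous retinas, against 9.09, 8.75, 9.00, 8.87 and 8.67 in control retinas. It differed by -0.88 (SE 0.20, adjusted p = 0.0131), and the 7-year-old Basset Hound was nearest to the controls. A second SYT3 probe set, below the level minimum, overlapped between the groups. In the fit without the minimum it differed by -0.21 (adjusted p = 0.577).

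SYT14, a synaptotagmin that does not bind calcium, had 7.34, 6.55, 6.79, 6.68 and 5.31 in glaucomatous retinas, against 8.08, 7.72, 7.79, 7.57 and 7.92 in control retinas. The Dalmatian was lowest and the 5-year-old Shiba Inu highest among the glaucomatous retinas, with no overlap and a difference of -1.28 (SE 0.30, adjusted p = 0.0154). SYT1, the fast calcium sensor of many central synapses, had 5.95, 7.10, 8.71, 8.05 and 7.74 in glaucomatous retinas, against 7.79, 7.74, 8.26, 7.27 and 7.46 in control retinas. The 5-year-old Basset Hound exceeded all controls and the 5-year-old Shiba Inu lay far under them, the difference was -0.19 (SE 0.43, adjusted p = 0.791) with an interval of -1.14 to 0.75, and without that Shiba Inu it was 0.19.

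SYT5, SYT11 and SYT17 did not pass. SYT5 differed by -0.38 (SE 0.15, adjusted p = 0.1), SYT11 by -0.02 (SE 0.15, adjusted p = 0.958) and SYT17 by 0.46 (SE 0.15, adjusted p = 0.0587). A second SYT5 probe set, below the minimum, did not overlap between the groups. In the fit without the minimum it differed by -0.43 (adjusted p = 0.0295). SYT2, SYT6, SYT7, SYT8, SYT9, SYT10, SYT12, SYT13 and SYT16, and the calcium-binding vesicle proteins DOC2B and RPH3A, did not meet the minimum, and none was called without it.

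CADPS, a priming factor that acts before fusion of synaptic and dense-core vesicles, had the smallest adjusted p of the members. Its levels were 8.31, 8.61, 9.41, 8.54 and 7.98 in glaucomatous retinas, against 10.49, 10.44, 10.40, 10.27 and 10.55 in control retinas. The control retinas spanned a narrow range, every glaucomatous retina lay well under it, and the Dalmatian was lowest. The difference was -1.86 (SE 0.22, adjusted p = 0.000313), a 3.63-fold lower level.

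RIMS1 and RIMS2, active zone scaffolds that recruit calcium channels and primed vesicles, did not pass. RIMS1 had 8.69, 8.38, 8.45, 8.36 and 8.48 in glaucomatous retinas, against 8.99, 8.93, 8.65, 8.66 and 8.53 in control retinas. The 5-year-old Shiba Inu alone lay within the control range, and the difference was -0.28 (SE 0.12, adjusted p = 0.122). RIMS2 had 7.07, 9.36, 9.56, 9.16 and 8.39 in glaucomatous retinas, against 9.18, 9.33, 9.89, 9.11 and 9.63 in control retinas, with the 5-year-old Shiba Inu far below the rest and a difference of -0.72 (SE 0.42, adjusted p = 0.258). The scaffolds BSN, PCLO and ERC2 and the CADPS relative CADPS2 lay below the minimum.

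Endocytosis genes, which retrieve vesicle membrane after release, were not called on the probe sets that represented them. AMPH, amphiphysin, which brings dynamin to the neck of a budding vesicle, had 9.75, 11.15, 11.22, 11.15 and 9.87 in glaucomatous retinas, against 11.73, 11.68, 11.31, 11.56 and 11.64 in control retinas. The groups did not overlap, yet the difference of -0.96 (SE 0.30, adjusted p = 0.0522) just missed the threshold, and a second probe set passed (-0.92, adjusted p = 0.0201). DNM1, the neuronal dynamin that cuts the bud off, had 8.37, 11.09, 10.45, 10.73 and 10.09 in glaucomatous retinas, against 11.22, 10.96, 11.39, 10.99 and 11.15 in control retinas. The 14-year-old Shiba Inu lay within the control range and the 5-year-old far below it. DNM1 differed by -0.999 (SE 0.42, adjusted p = 0.122), and a second probe set passed (-0.96, adjusted p = 0.0158). That probe set overlapped between the groups and had met the level minimum in the control group alone, so that its selection favoured a lower level. The other DNM1 probe sets lay below the minimum and overlapped. In the fit without the minimum they differed by -0.23 (adjusted p = 0.371) and -0.07 (adjusted p = 0.871).

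SNAP91, the clathrin adaptor AP180, had 9.00, 12.15, 11.92, 12.21 and 11.36 in glaucomatous retinas, against 12.13, 12.17, 12.42, 12.02 and 12.01 in control retinas. The 5-year-old Shiba Inu lay far under all others, the 14-year-old one and the 7-year-old Basset Hound lay within the control range, and the difference was -0.82 (SE 0.52, adjusted p = 0.304) with none of its 3 probe sets passing. SH3GL2, endophilin A1, had 7.40, 7.11, 7.48, 6.96 and 7.12 in glaucomatous retinas, against 7.34, 7.82, 7.61, 7.35 and 7.997 in control retinas. The 5-year-old Shiba Inu and the 5-year-old Basset Hound lay within the control range, and the difference was -0.41 (SE 0.16, adjusted p = 0.0966). SYNJ1, the lipid phosphatase synaptojanin 1, differed by 0.15 (SE 0.31, adjusted p = 0.772), and DNM3 lay below the minimum.

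**Figure D3:**
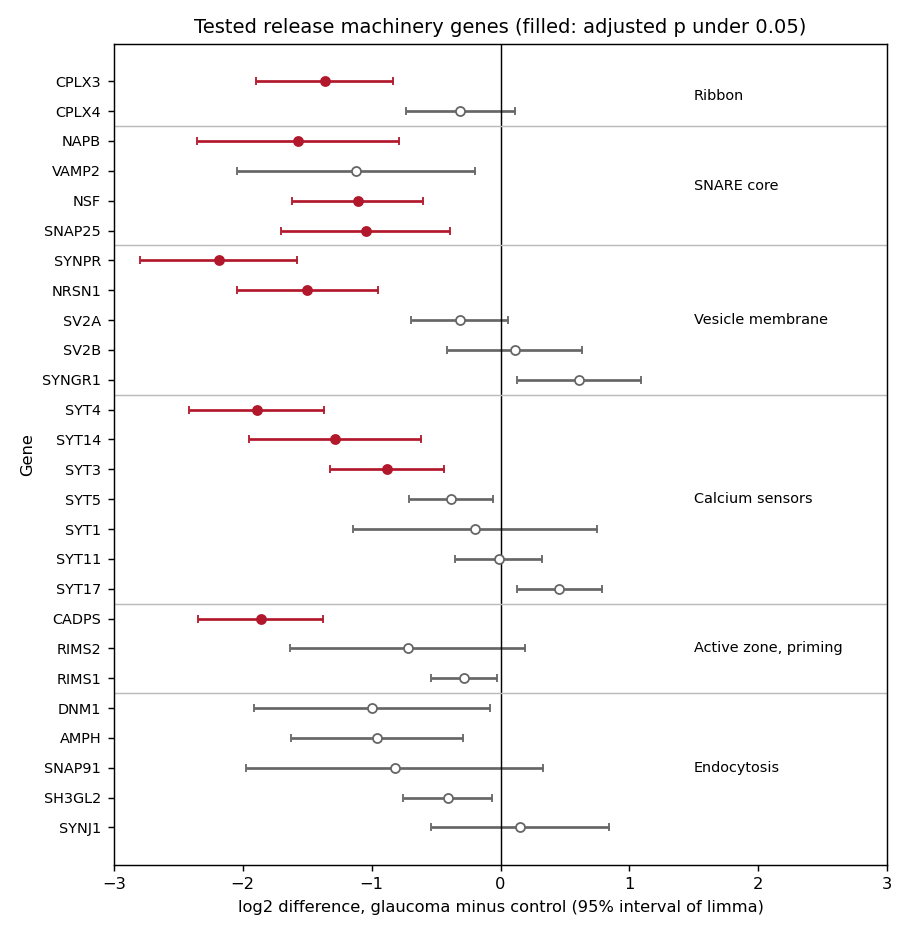
Difference of mean log2 level, glaucomatous minus control retinas, with its 95% interval for each tested member, by role. CADPS, SYNPR and SYT4 lie farthest below 0, whereas SYNGR1 and SYT17 lie above it without passing the test.

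Across dogs, the tested members had median deviations from the control mean of -1.75, -0.40, -0.47, -0.43 and -0.94 in the glaucomatous retinas, against -0.09 to 0.08 in the control retinas. The 5-year-old Shiba Inu lay below all controls in 21 of the 26 members, and the other glaucomatous dogs in 14, 17, 19 and 20. The share of all tested genes below all controls in each dog is not given here. These counts are therefore not read as particular to the members. Without the 5-year-old Shiba Inu, all 10 called members were called again. SNAP91 then differed by -0.24, RIMS2 by -0.31, DNM1 by -0.56 and VAMP2 by -0.74, so that much of their size rested on this retina. It was also the retina with the lowest median of rod markers. The part of its cell composition in these values was not tested.

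**Figure D4:**
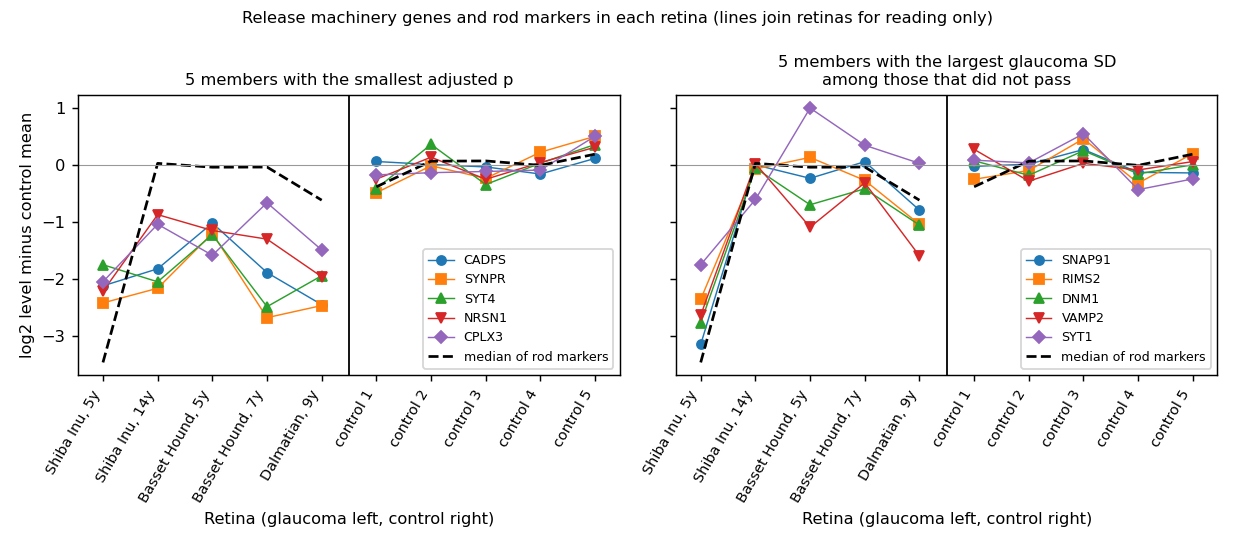
Deviation from the control mean (log2 units) in each retina for the 5 members with the smallest adjusted p (left) and, chosen after their values were seen, the 5 with the largest glaucoma SD among those that did not pass (right), beside the median of rod markers (dashed). The left members are low in all 5 glaucomatous retinas, the right ones lowest in the 5-year-old Shiba Inu.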

How the data were processed

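Retinal RNA of 5 glaucomatous and 5 control dogs was measured on 1 array each. The deposited values are intensity on a linear scale, which the authors made with the RMA algorithm (background subtraction, normalization of all arrays to 1 distribution, summary of the probes of each probe set). The version of that software is not given in the sources used here. From these, log2 values were taken. The 111 control probe sets were left out, and 0 sample columns were unused.

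Of the 42924 probe sets, 29254 carry 1 symbol in the array annotation, 439 several and 13231 none, and a gene was named only by a single symbol. The 18416 probe sets with log2 above 7 in at least 2 samples entered a limma fit (limma 3.58.1, R 4.3.3), and p-values were adjusted over all of them by Benjamini-Hochberg. They held 7900 genes, and the tested probe set of highest mean over all retinas stood for its gene. Median deviations of marker lists are medians over tested genes. The code was tested on simulated data with known differences. Every member was named, with values per dog for all ribbon and conventional genes and, in other roles, for the 3 tested members with the smallest adjusted p and the brightest one that did not pass. The members, lists and tests were chosen with earlier results of these data known. Alternatives were other filters, scaling, weights, a rank test, covariates, breeds and single dogs left out. The second 3' to 5' ratio was chosen after seeing the data. Labels tie no array to a scan date, so batches were not examined.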

Additional observations from a re-analysis of the deposited data

Results flagged for a closer look

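In 86 groups of 5 values checked, 7 held a value far from the others, where chance gives about 1 in 20. The 5-year-old Shiba Inu had a SNAP91 level of 9.00, against 11.36 to 12.21 in the other glaucomatous retinas, and a rod marker median of -3.47, against -0.62 to 0.03. Control 5 had a CPLX3 level of 11.02, against 10.34 to 10.42 in the other controls, and a CPLX1 level of 6.10, against 6.28 to 6.33. Control 4 had a pigment epithelium marker median of 1.81, against -0.53 to -0.24 in the other controls. The same dog's median deviation was -0.0869 over all members (others 0.01 to 0.03) and -0.0905 over active zone and priming genes (others 0.00 to 0.03).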

How the results depend on the processing

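The count of 10 members called lower stayed between 9 and 14 in all settings tried except 2. With single dogs left out it ran from 9 to 14, and the count at least 2-fold lower from 6 to 11. With the exact Wilcoxon rank sum test 0 members passed after adjustment, of which 0 ribbon and 0 at least 2-fold lower (smallest p it allows 0.00794, 14 members lower and 1 higher at an unadjusted p under 0.05), and with the 3' to 5' ratio as a covariate 5 were lower, all 5 at least 2-fold. With a second pair of control probe sets for that ratio, added after seeing the data, 12 were lower. For the unadjusted counts of the rank test, the share of all tested genes is not given here. Without the level minimum 1 conventional gene, SYN2, was lower. Members higher numbered 2 with array weights (SYNGR1, SYT17), 1 without the Basset Hounds and 0 to 2 with single dogs left out. SYT1 changed sign to 0.13 with array weights, 0.46 without the Shiba Inus, 0.17 with the 3' to 5' ratio and 0.19 without the 5-year-old Shiba Inu (-0.49 to 0.19 with single dogs left out). The cause of these changes was not tested. Leaving out single dogs moved called differences by 0.757 to 1.16 times. As to pairing, sample numbers only name dogs (0 of 5 glaucomatous dogs correlated best with their own number), and with the replicate block 9 members were called, SNAP25 lost (adjusted p = 0.0513).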

Other observations

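Other release genes, from a list of 90 symbols of which 78 were found and 51 tested, were lower in 7 cases and higher in 3, with 41 not passing and a median difference of -0.16. Over all tested genes 8.65% were lower and 8.04% higher, and the counts of this list are not set apart from those shares. SH3GL3, an endophilin, averaged 7.16 in glaucomatous and 9.03 in control retinas (-1.86, adjusted p = 0.00284), and RAB3A, the vesicle GTPase that RIM binds, 9.80 and 11.49 (-1.69, adjusted p = 0.00374). NAPG, gamma-SNAP, differed by -0.92 (adjusted p = 0.0072), and SNAP47 and SLC18A2 were also lower. UNC13C and CACNB2 were called lower as well, but met the level minimum in the control group alone, and CACNB2 overlapped between the groups and did not pass without the minimum (adjusted p = 0.0602). On the higher side were SH3GLB1, an endophilin B (0.46, adjusted p = 0.00701), ITSN1, the endocytic scaffold intersectin 1 (1.05, adjusted p = 0.00866), and VAMP8, a SNARE of endosomes and lysosomes (0.90, adjusted p = 0.0197). The groups overlapped for VAMP8 but not for SH3GLB1 and ITSN1.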
